A study of Homo sapiens with 4 samples.

Results

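The replication-dependent histone genes are the clustered genes that supply the bulk of the linker histone H1 and of the core histones H2A, H2B, H3 and H4 while DNA is copied. They were taken here by name and biotype, as every protein-coding row whose symbol begins with HIST1H, HIST2H, HIST3H or HIST4H, the older names that the counts carry. The rule found 71 of 58735 genes, of which 6 encode H1, 17 H2A, 18 H2B, 15 H3 and 15 H4. RNA was sequenced from SW1990, a human cell line from a pancreatic ductal adenocarcinoma, in 2 libraries per group: cells given vehicle for 24 h, and cells given gomisin G, a lignan of Schisandra fruits, at 10 µM for the same time. The labels do not name the vehicle, both groups come from the same line, and the title of the series names growth of pancreatic cancer cells and Hippo-YAP signalling. Whether the libraries of a group are separate cultures is not said, so the p-values speak for the spread among these 4 libraries, and that spread may be technical.

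These genes differ from nearly all other protein-coding genes in how their mRNA ends. A histone mRNA of this class has no introns and is cut just after a conserved stem-loop, which the stem-loop binding protein SLBP holds in place of a poly(A) tail, with the U7 snRNP guiding the cut. The mRNA is made in S phase under the coactivator NPAT and is degraded when DNA synthesis stops, while some of the genes can also give longer, polyadenylated transcripts from signals past the stem-loop.

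The stem-loops of the genes described first are shown because they mark where the usual mRNA ends. The letters of the H4 genes also differ from those of the other types shown. Capitals mark the 16 bases of the stem-loop, written 5′ to 3′ on the strand of the gene, with 5 flanking bases on each side; all lie in the 3′ UTR of GENCODE 29 transcripts.
HIST1H2AC: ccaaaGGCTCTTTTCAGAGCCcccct
HIST3H2A: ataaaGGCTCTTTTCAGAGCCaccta
HIST1H2BD: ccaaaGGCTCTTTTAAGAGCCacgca
HIST2H2BE: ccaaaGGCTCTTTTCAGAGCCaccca
HIST1H3H: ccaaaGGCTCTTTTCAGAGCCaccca
HIST1H4I: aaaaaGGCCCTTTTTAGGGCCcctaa
HIST4H4: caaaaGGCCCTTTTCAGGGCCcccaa
HIST1H4H: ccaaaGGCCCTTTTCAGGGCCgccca

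The histone stem-loop was searched on the sense strand after the stop codon as 16 bases that begin with GG, end with CC, have a T-A pair closing the loop and a T within it, and pair 6 bases of each stem arm, G-T pairs allowed. It was found in 31 of the 36 histone genes with an annotated 3′ UTR and in 183 of 19922 protein-coding genes (0.919%), the histone genes included. The match lay 22 to 67 bases past the stop codon and took 5 forms. Every H4 gene with a match had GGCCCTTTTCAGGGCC (5 genes) or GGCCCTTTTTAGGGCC (3 genes). None of the matched H2A, H2B and H3 genes had either form; most had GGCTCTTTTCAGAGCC (17 genes) or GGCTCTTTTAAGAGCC (5 genes), and HIST1H2AG had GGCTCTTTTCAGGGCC. In 22 of the 31 genes an annotated transcript ran more than 100 bases past the stem-loop, by 1729 bases in HIST2H2BE and by up to 1128 bases in HIST1H2AC. For 35 genes the annotation has no 3′ UTR, so their stem-loops were not read here.

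Total counts per library ran from 14580848 to 15245770, and 3 counts, the limit that a count of 0 allows, were 0.189 to 0.207 CPM (counts divided by library size and TMM factor). Such floors and the count intervals given here cover counting error only. All 5 epithelial genes checked, 3 keratins among them, were present (summed 6997 to 11226 CPM). PTPRC and CD3E of leukocytes and COL1A2 and LUM of fibroblasts were at 0 in every library. The leukocyte marker CD14 was present, at 4.69 and 6.12 CPM in vehicle against 5.80 and 4.67 CPM with gomisin G, and CD68 had 5 counts in all. Of the endothelial markers PECAM1 had 30 counts in all, VWF 3 and CDH5 1. The 7 fibroblast markers together, mostly COL1A1 and PDGFRB, summed to 4.69 and 4.91 CPM in vehicle against 8.57 and 12.0 CPM with gomisin G, and the part of this in the histone values was not tested. Because these are bulk samples, fewer cells making a transcript and less of it per cell cannot be told apart.

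Histone genes held few counts in every library. They summed to 1056 and 902 counts in vehicle against 1906 and 1599 with gomisin G, or 0.00724 and 0.00605% against 0.0127 and 0.0105% of all counts. Both gomisin G libraries lay above both vehicle libraries. In normalised units the sum was 66.8 ± 8.59 CPM in vehicle against 116.3 ± 21.7 CPM with gomisin G (SD, n = 2 each), a 1.74-fold difference, with a count ratio of 1.73 (95% exact interval 1.64 to 1.83). A few genes carried the sum: HIST1H1C alone held 28.2% of all histone counts, the top 3 genes 53.8% and the top 10 genes 83.7%. Of the 71 genes, 18 had no count in any library, among them HIST1H1T, HIST1H2AA and HIST1H2BA, the testis forms of H1, H2A and H2B. A further 33 had 1 to 20 counts over all 4 libraries.

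**Figure D1:**
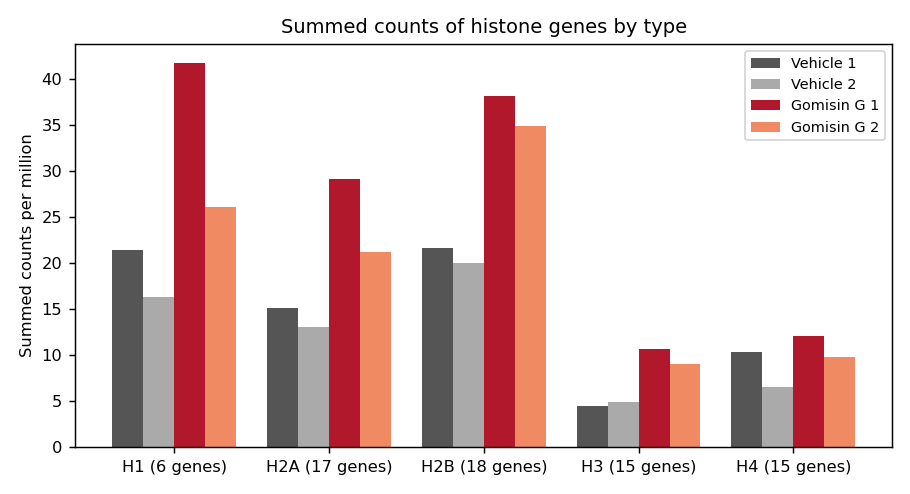
Summed TMM-scaled CPM of all histone genes of each type (vertical axis, from 0), with 1 bar per library. Both gomisin G bars stand above both vehicle bars for H1, H2A, H2B and H3, while for H4 the vehicle bars (10.3 and 6.53) overlap the gomisin G bars (12.0 and 9.72).

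Summed by type, linker histone H1 and the core histones H2A, H2B and H3 were higher in both gomisin G libraries, and H4 was not separated. H1 genes summed to 21.4 and 16.3 CPM in vehicle against 41.7 and 26.1 CPM with gomisin G (1.80-fold). H2A genes gave 15.1 and 13.1 CPM against 29.1 and 21.2 CPM (1.79-fold). H2B genes gave 21.6 and 19.99 CPM against 38.2 and 34.9 CPM (1.76-fold). H3 genes gave 4.41 and 4.84 CPM against 10.6 and 8.96 CPM (2.12-fold; count ratio interval 1.71 to 2.60). H4 genes gave 10.3 and 6.53 CPM against 12.0 and 9.72 CPM (1.29-fold; count ratio interval 1.09 to 1.52), so that 1 vehicle library exceeded 1 gomisin G library. The H4 difference was 0.37 on the log2 scale, 0.74 without Vehicle replicate 1 and 0.071 without Vehicle replicate 2. These sums are descriptions and carry no test.

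Of the 71 genes, 19 passed the expression filter and were tested with edgeR's quasi-likelihood test in 1 fit over 15721 genes, while 34 had counts too low for it and 18 had none. By this test 0 of the 19 had a Benjamini-Hochberg adjusted p below 0.05, against 287 of 15721 genes (1.83%; 0.922% higher and 0.903% lower). The lowest adjusted p was 0.0613 (HIST1H3E). At an unadjusted p below 0.05 there were 11 histone genes, all higher with gomisin G, against 10.9% of all tested genes in that direction. The calls were 3 with DESeq2 (HIST1H2AC, HIST1H1C and HIST1H3E), of 883 genes called, and 0 with limma voom, of 264 genes called. The fitted log2 difference (gomisin G minus vehicle) was above 0 for 18 of the 19, against 50.7% of all tested genes, with a median of 0.82 against 0.0092. Both gomisin G libraries exceeded both vehicle libraries for 14, against 27% of all tested genes (54.2% in either direction). Of the 19 genes 13 passed the filter in both groups, 1 in vehicle alone and 5 in gomisin G alone. The filter favours genes that are high in 1 group, so these counts describe the tested genes and support nothing about all 71. A fit with 1 library left out keeps 1 library in that group and takes its spread from the other pair alone. Without Gomisin G replicate 1 the calls numbered 6 histone genes (of 2829 genes called), and without Gomisin G replicate 2 they numbered 12, of which 11 were higher and HIST4H4 lower (of 6325 genes called). Without either vehicle library there were 0.

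**Figure D2:**
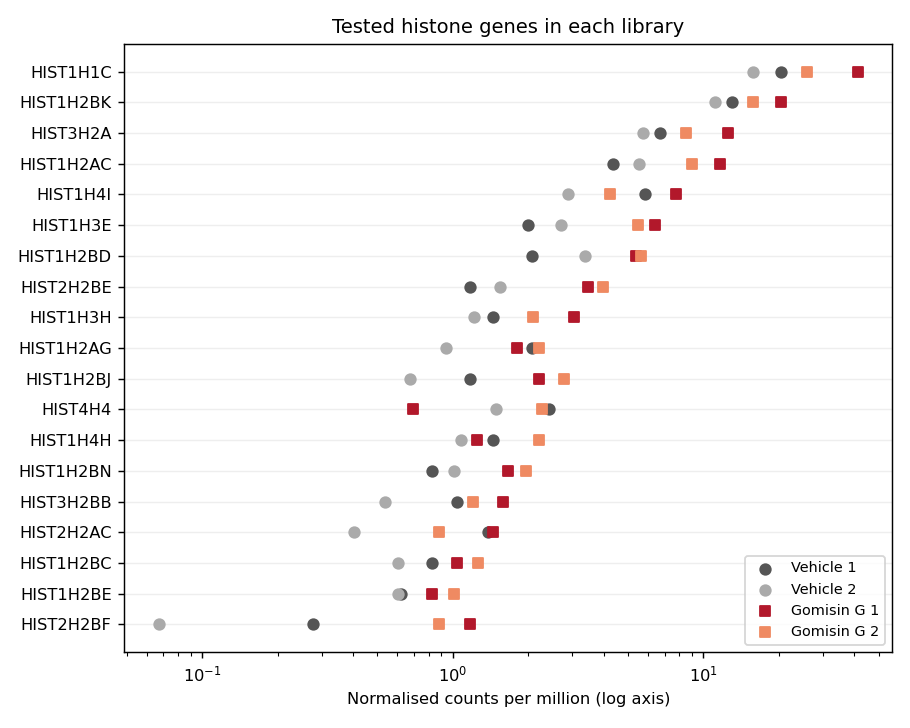
TMM-scaled CPM (log axis) of the 19 tested histone genes, 1 point per library, ordered by summed count. The gomisin G points lie to the right of both vehicle points for 14 genes, and the gomisin G points of HIST4H4 (0.691 and 2.27) lie on both sides of its lower vehicle point.

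Nearly all of the H1 sum came from 1 gene. HIST1H1C (now H1-2; chromosome 6, 26055787 to 26056428, minus strand, GRCh38), which encodes linker histone H1.2 and is known to give polyadenylated mRNA, was at 20.4 and 15.7 CPM in vehicle against 41.2 and 25.9 CPM with gomisin G. Both gomisin G libraries were above both vehicle libraries, but they differed from each other by more than the lower of them differed from vehicle. The log2 difference was 0.89 (SE 0.26, edgeR adjusted p = 0.113). The other 5 H1 genes together had 14 and 8 counts in vehicle and 7 and 3 with gomisin G, a ratio of 0.440 (95% interval 0.186 to 0.969), the opposite direction. HIST1H1E, the H1.4 gene and the highest of these, had 7 and 6 counts in vehicle against 4 and 2.

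Among the H2A genes the values were split. HIST3H2A (H2AC25; chromosome 1, 228456979 to 228457873, minus strand) was at 6.69 and 5.72 CPM in vehicle against 12.6 and 8.52 CPM with gomisin G, a log2 difference of 0.76 (SE 0.26, adjusted p = 0.165). HIST1H2AC (H2AC6; chromosome 6, 26124145 to 26139116, plus strand) was at 4.35 and 5.52 CPM in vehicle against 11.7 and 9.03 CPM with gomisin G, a log2 difference of 1.07 (SE 0.25, adjusted p = 0.0776). In both genes the groups did not overlap. HIST1H2AG (2.07 and 0.942 CPM against 1.80 and 2.21 CPM, adjusted p = 0.622) and HIST2H2AC (1.38 and 0.404 CPM against 1.45 and 0.884 CPM, adjusted p = 0.759) had overlapping groups. Leaving out Vehicle replicate 2 turned the log2 difference of HIST1H2AG from 0.42 to -0.039 and that of HIST2H2AC from 0.38 to -0.24.

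All 9 tested H2B genes were higher in both gomisin G libraries than in both vehicle libraries, against 27% of all tested genes. But 4 of the 9 (HIST3H2BB, HIST1H2BC, HIST1H2BE and HIST2H2BF) passed the filter through gomisin G alone, so this count is a description of the tested genes. HIST1H2BK (H2BC12; chromosome 6, 27146418 to 27146798, minus strand) was the most counted, at 13.0 and 11.2 CPM in vehicle against 20.4 and 15.8 CPM with gomisin G (log2 0.59, SE 0.21, adjusted p = 0.177). HIST1H2BD (H2BC5) was at 2.07 and 3.36 CPM in vehicle against 5.39 and 5.62 CPM with gomisin G (log2 1.01, SE 0.31, adjusted p = 0.129). HIST2H2BE (H2BC21; chromosome 1, 149884459 to 149886652, minus strand), whose polyadenylated form is known from differentiated cells, was at 1.17 and 1.55 CPM in vehicle against 3.45 and 3.98 CPM with gomisin G (log2 1.44, SE 0.34, adjusted p = 0.0744). In these 3 genes the lowest gomisin G library stood clear of the highest vehicle library. HIST1H2BJ went from 17 and 10 counts to 32 and 44 (log2 1.43, adjusted p = 0.120), and HIST1H2BN from 12 and 15 to 24 and 31 (log2 0.97, adjusted p = 0.237). The log2 differences of HIST3H2BB, HIST1H2BC and HIST1H2BE were 0.82, 0.68 and 0.58, with adjusted p from 0.386 to 0.551. HIST2H2BF had 4 and 1 counts in vehicle and 17 and 14 with gomisin G, a count ratio of 6.0 (95% interval 2.31 to 19.8, adjusted p = 0.118), and it was tested only because the gomisin G libraries passed the filter. Its exons overlap those of FCGR1A on the opposite strand, and no source used here says whether the counting used the strand, so reads of these 2 genes cannot be told apart. HIST1H2BE likewise overlaps the antisense gene AL353759.1, and HIST1H2BN overlaps HIST1H2AK and HIST1H2AL.

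**Figure D3:**
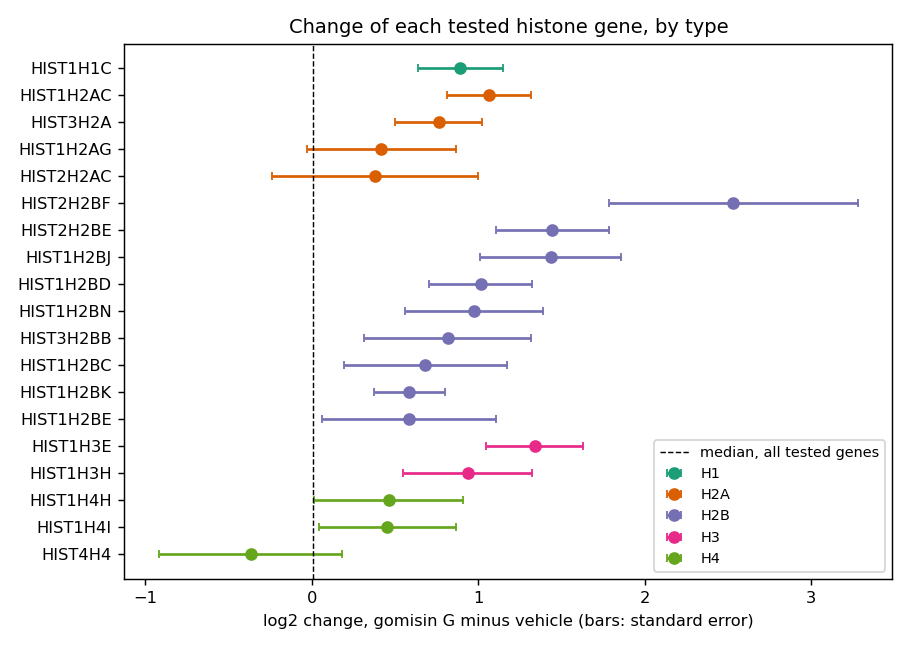
Fitted log2 difference, gomisin G minus vehicle (horizontal axis), of the 19 tested histone genes with standard errors as bars, coloured by histone type, and the median of all tested genes as a dashed line at 0.0092. All 9 H2B genes and both H3 genes lie to the right of it, and HIST4H4, at -0.37, is the 1 gene to the left.

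Both tested H3 genes were higher in both gomisin G libraries (27% of all tested genes were). HIST1H3E (H3C6; chromosome 6, 26224199 to 26227473, plus strand), a gene for canonical H3, was at 2.0 and 2.69 CPM in vehicle against 6.42 and 5.49 CPM with gomisin G. This was the widest separation relative to its error among the 19 genes, at a log2 difference of 1.34 (SE 0.29, adjusted p = 0.0613). HIST1H3H (H3C10) was at 1.45 and 1.21 CPM in vehicle against 3.04 and 2.08 CPM with gomisin G (log2 0.94, SE 0.38, adjusted p = 0.224). Without HIST1H3E the H3 sum differed by 0.75 on the log2 scale, against 1.08 with it. HIST3H3, the testis H3 gene, had 1 and 6 counts in vehicle and 2 and 12 with gomisin G, the most of any untested histone gene.

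No tested H4 gene separated the groups (54.2% of all tested genes did, in either direction). HIST1H4I (H4C9) was at 5.86 and 2.89 CPM in vehicle against 7.81 and 4.23 CPM with gomisin G (log2 0.45, SE 0.41, adjusted p = 0.553). HIST1H4H (H4C8) was at 1.45 and 1.08 CPM against 1.24 and 2.21 CPM (log2 0.46, SE 0.45, adjusted p = 0.581). HIST4H4 (H4C16; chromosome 12, 14767999 to 14771131, minus strand), which stands outside the clusters, was at 2.41 and 1.48 CPM against 0.691 and 2.27 CPM (log2 -0.37, SE 0.55, adjusted p = 0.741). In each of these genes at least 1 gomisin G library lay inside the vehicle range. All 3 signs depended on 1 library: HIST1H4I was at -0.043 without Gomisin G replicate 1, HIST1H4H at -0.020 when replicate 2 was left out instead, and HIST4H4 at 0.019 without Vehicle replicate 1 and 0.23 when the first gomisin G library was left out. Without the other gomisin G library, HIST4H4 was at -1.48 with an adjusted p of 0.0413, and HIST1H4I was at 0.84 with an adjusted p of 0.0104.

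The 34 genes with counts that were not tested had at most 21 counts each and summed to 3.79 and 3.43 CPM in vehicle against 5.94 and 3.53 CPM with gomisin G. Gomisin G replicate 2 lay inside the vehicle range for this sum. The mean was higher with gomisin G in 23 of them and lower in 11. After HIST3H3 and HIST1H1E the most counted were HIST1H4E (1 and 4 counts against 9 and 5), HIST1H4K (4 and 2 against 8 and 1) and HIST1H2BO (6 and 3 against 4 and 1). Every 100-base window of HIST1H4K occurs in another histone gene, so its count depends on how reads matching several places were treated, which no source used here gives. Shared windows of this kind were absent from 11 of the 12 most counted genes and made up 2.63% of HIST2H2BE, 17.2% of HIST2H2AC and 12.8% of HIST2H2BF.

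By genome cluster, the 55 HIST1 genes of chromosome 6 summed to 59.5 and 50.3 CPM in vehicle against 109.6 and 81.6 CPM with gomisin G (1.74-fold). The 12 HIST2 genes of chromosome 1 summed to 3.17 and 2.22 CPM against 7.05 and 6.56 CPM (2.52-fold), and the 3 HIST3 genes to 7.79 and 6.66 CPM against 14.3 and 10.5 CPM (1.71-fold). Each of these 3 clusters was higher in both gomisin G libraries, and whether the clusters differed from each other was not tested.

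Levels were compared between genes per kilobase of the length deposited with the counts. In vehicle HIST1H2BK (31.7 CPM per kb) and HIST1H1C (28.2 CPM per kb) were the highest, followed by HIST3H2A (6.93), HIST1H4I (3.38), HIST1H2BD (3.12) and HIST1H2AC (2.96 CPM per kb). With gomisin G the same scale gave 52.3 for HIST1H1C and 47.6 for HIST1H2BK. Both leading genes are annotated without UTRs, so reads over their UTRs were not counted.

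The annotated 3′ UTR went with the number of counts. Among the 29 genes with an annotated 3′ UTR over 100 bases, 1 had no count and the median gene had 46 counts over the 4 libraries. Among the 35 genes with none, 16 had no count and the median was 2 counts, and among the 7 genes with a shorter one the median was 8. The first class held 16 of the 19 tested genes; the second held HIST1H1C, HIST1H2BK and HIST2H2AC. The counted length differs between these classes, and its part in the counts was not tested. The long class summed to 34.8 and 30.5 CPM in vehicle against 64.2 and 56.2 CPM with gomisin G (1.84-fold). The 7 genes with a shorter 3′ UTR summed to 0.828 and 1.21 CPM against 1.11 and 1.20 CPM (1.13-fold), with overlapping groups. The class with none summed to 37.2 and 28.9 CPM against 66.4 and 43.6 CPM (1.66-fold), and HIST1H1C and HIST1H2BK carried that difference: its other 33 genes had 56 and 30 counts in vehicle against 68 and 28 with gomisin G, with overlapping groups.

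**Figure D4:**
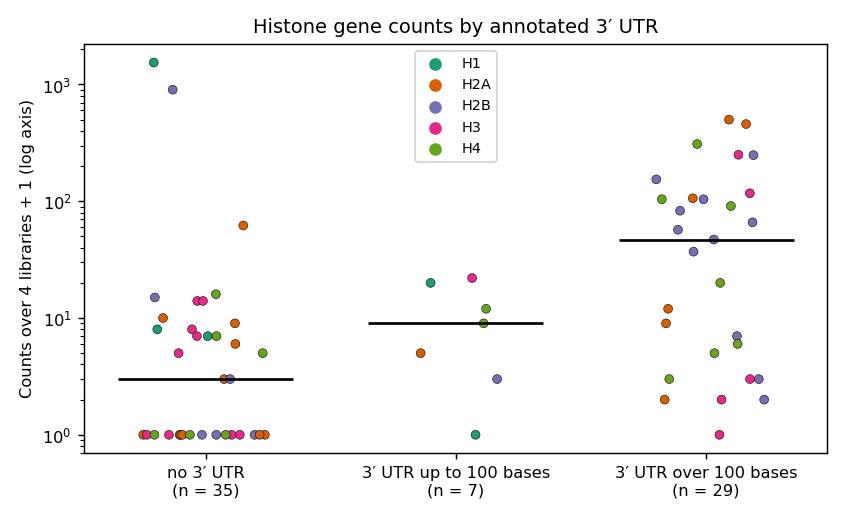
Counts of each histone gene over the 4 libraries plus 1 (log axis) by the longest 3′ UTR annotated for it, with points coloured by type and the class median as a line. Genes with an annotated 3′ UTR over 100 bases have a median of 46 counts, and those with none a median of 2 counts, with HIST1H1C and HIST1H2BK far above it.

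The 5 genes known from earlier work to give polyadenylated transcripts, HIST1H1C, HIST1H2AC, HIST1H2BD, HIST1H2BK and HIST2H2BE, held 56.2 to 62.4% of the histone counts of each library. They summed to 41.0 and 37.3 CPM in vehicle against 82.2 and 60.4 CPM with gomisin G (1.82-fold). The other 66 genes summed to 31.9 and 23.3 CPM in vehicle against 49.5 and 40.5 CPM with gomisin G (1.63-fold). In both sets the gomisin G libraries were above the vehicle libraries. Of 15 listed genes for RNAs that carry no poly(A) tail, 10 were at 0 in all libraries, as was RNU7-1, the U7 snRNA of histone 3′ processing. The 15 summed to 102.2 and 55.3 CPM in vehicle against 170.3 and 192.0 CPM with gomisin G, nearly all of it from RN7SL2. Counts of RNAs with several gene copies depend on how reads matching several places were treated, which no source used here gives. RN7SL2, a 7SL RNA of the signal recognition particle, was at 100.9 and 54.4 CPM in vehicle against 168.3 and 189.4 CPM with gomisin G (log2 1.20, SE 0.27, adjusted p = 0.0674). This moves in the same direction as the histone genes, and its part in their values was not tested. The labels name removal of ribosomal RNA and do not say whether poly(A) selection was also used.

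The start regions are shown for an H1, an H2B and an H4 gene whose values differ above. They run from 250 bases before to 50 bases after the RefSeq start (GRCh38.p14), on the strand of the gene. Capitals mark matches, on either strand and at any position, to 4 motifs. They are TATAAA (letters of the core promoter TATA box) and CCAAT (the box bound by the factor NF-Y). The others are ATTTGCAT (the octamer bound by POU2F1, also called OCT1) and AAACACA (the box known from H1 genes). A match far from the start, such as TATAAA at the upstream end of the HIST4H4 region, is a match of letters alone. Overlapping matches form a joint run of capitals. HIST1H1C is at chr6:26056421-26056720, HIST2H2BE at chr1:149886633-149886932 and HIST4H4 at chr12:14771082-14771381, all on the minus strand.
HIST1H1C: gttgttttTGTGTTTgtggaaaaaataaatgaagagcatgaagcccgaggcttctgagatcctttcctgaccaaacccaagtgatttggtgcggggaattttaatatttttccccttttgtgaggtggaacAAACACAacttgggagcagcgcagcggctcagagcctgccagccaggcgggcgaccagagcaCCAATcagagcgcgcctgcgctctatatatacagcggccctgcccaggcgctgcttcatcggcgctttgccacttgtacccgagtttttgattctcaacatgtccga
HIST2H2BE: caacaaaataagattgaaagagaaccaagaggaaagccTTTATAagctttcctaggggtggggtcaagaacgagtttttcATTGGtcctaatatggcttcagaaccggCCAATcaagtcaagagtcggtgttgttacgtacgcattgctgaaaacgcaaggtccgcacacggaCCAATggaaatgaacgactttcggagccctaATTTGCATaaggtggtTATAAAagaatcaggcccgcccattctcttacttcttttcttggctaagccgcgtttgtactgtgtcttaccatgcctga
HIST4H4: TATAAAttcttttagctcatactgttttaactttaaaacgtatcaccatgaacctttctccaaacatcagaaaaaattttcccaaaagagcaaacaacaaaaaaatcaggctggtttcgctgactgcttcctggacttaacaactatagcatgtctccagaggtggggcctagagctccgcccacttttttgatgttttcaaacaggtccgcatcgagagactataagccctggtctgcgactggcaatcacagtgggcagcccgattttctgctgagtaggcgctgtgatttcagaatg

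Start regions of 61 of the 71 genes were matched. The octamer was in 14 of 18 H2B, 11 of 14 H2A and 1 of 10 H3 genes. It was in none of the 6 H1 and 13 H4 genes and in 1.77% of 35116 RefSeq promoters of the same length. The H3 match, HIST1H3D, has the same start region as the H2A gene HIST1H2AD. Matches count on either strand, so 1 octamer between the starts of head-to-head partners can count for both genes. The H1 box was in 6 of 6 H1, 2 of 10 H3 and 1 of 14 H2A genes. It was in none of the H2B and H4 genes and in 5.64% of all promoters. The 2 H3 matches, HIST2H3A and HIST2H3C, have near-identical start regions. CCAAT was in every matched H1, H2A, H2B and H3 gene but in 3 of 13 H4 genes, against 34.6% of all promoters, and TATAAA was in 40 of the 61 genes against 11.5%. These matches describe letters, not binding.

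Several histone genes lie head to head and share the stretch between their starts. Of 12 such pairs within 500 bases, 11 joined an H2A and an H2B gene, and 4 had both genes tested. HIST1H2BO was paired with both HIST1H2AM and HIST1H3J, whose exons overlap on the same strand, so the pairs are not all separate stretches. HIST3H2A and HIST3H2BB, 233 bases apart, stood at 6.93 and 0.333 CPM per kb in vehicle, and HIST1H2AC and HIST1H2BC, 218 bases apart, at 2.96 and 0.859 CPM per kb. HIST2H2AC and HIST2H2BE, 322 bases apart, stood at 2.29 and 0.620 CPM per kb, while HIST1H2BJ and HIST1H2AG, 291 bases apart, were closer in level, at 0.971 and 0.669 CPM per kb. HIST1H2BK stood at 31.7 CPM per kb and its untested partner HIST1H2AH, 330 bases away and with 5 counts in all, at 0.0869 CPM per kb, both annotated with no 3′ UTR. The deposited lengths of partners differ, as with 390 bases for HIST2H2AC and 2194 bases for HIST2H2BE. In vehicle CPM, without division by length, the order turned for that pair (0.892 and 1.36). It also turned for HIST1H2BJ and HIST1H2AG (0.923 and 1.51), and it stayed the same in the other pairs given. Per kilobase some partners thus differed in level and others were near each other, and no test was made of these differences.

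Genes of the machinery that makes and removes histone mRNA were mostly lower with gomisin G, without passing the test. Of 24 listed genes for histone transcription, 3′ processing and decay, 23 were tested and edgeR called 0, against 1.83% of all tested genes. DESeq2 called 3 (883 of all 15721 tested genes) and limma voom 0 (264 of all). A negative log2 difference was seen in 18, against 49.3% of all tested genes, with a median of -0.27. At an unadjusted p below 0.05 there were 8 genes (20.6% of all tested genes), 6 lower and 2 higher. The 2 higher ones, named after their values were seen, were MIF4GD, a partner of SLBP in translation (log2 0.75, adjusted p = 0.107), and HINFP, an H4 transcription factor (log2 0.46, adjusted p = 0.204). SLBP was at 197.4 and 178.3 CPM in vehicle against 156.2 and 134.3 CPM with gomisin G (log2 -0.37, SE 0.16, adjusted p = 0.246). NPAT was at 26.9 and 29.3 CPM against 14.1 and 19.6 CPM (log2 -0.74, SE 0.21, adjusted p = 0.109). POU2F1 was at 79.5 and 90.6 CPM against 30.1 and 52.6 CPM (log2 -1.04, SE 0.26, adjusted p = 0.0810). SLBP, NPAT and POU2F1 were each lower in both gomisin G libraries. With the trend of gene length removed, edgeR called 3 genes of the list, against 803 of all 15721 tested genes. SLBP (log2 -0.57, adjusted p = 0.0452) and POU2F1 were among them. Calls rose, in this list and over all genes, when either gomisin G library was left out, and are not read as particular to the list.

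S phase genes were lower with gomisin G. All 17 listed genes were lower in both gomisin G libraries (27.3% of all tested genes were), with a median log2 difference of -0.82, and edgeR called 6 of them lower, against 0.903% of all tested genes. MCM6 and MCM4, subunits of the replicative helicase, fell by 0.89 (SE 0.15, adjusted p = 0.0343) and 0.90 (SE 0.16, adjusted p = 0.0386) on the log2 scale. CDC25A, a phosphatase that activates the S phase kinase CDK2, fell by 1.02 (SE 0.18, adjusted p = 0.0357), and 3 more MCM genes were called. Few or no genes of this list were called when either vehicle library was left out, and calls also fell over all genes. When either gomisin G library was left out, calls rose in this list and over all genes. Histone chaperones, which carry new histones to DNA, had 18 tested genes with a median of -0.33. CHAF1A, a subunit of chromatin assembly factor 1, fell by 0.78 (SE 0.15, edgeR adjusted p = 0.0494). It was the 1 call among them, against 1.83% of all tested genes. CHAF1A was not called with either vehicle library left out. It was also not called by edgeR with RLE size factors (adjusted p = 0.0532) or no expression filter (adjusted p = 0.0587), nor by limma voom (adjusted p = 0.0502). Chaperone calls rose, as calls did over all genes, when either gomisin G library was left out.

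Replication-independent histone genes, most of which are polyadenylated and made through the cell cycle, had a median log2 difference of 0.062 over 10 tested genes. Of these 8 had a positive difference (50.7% of all tested genes did) and 3 were higher in both gomisin G libraries (27% of all tested genes were). By edgeR 0 were called (1.83% of all tested genes were), and 1 had an unadjusted p below 0.05 (20.6% of all tested genes did). DESeq2 and limma voom called 0. H1FX, a linker histone gene, had the lowest p, at 110.6 and 88.6 CPM in vehicle against 193.1 and 120.1 CPM with gomisin G (log2 0.65, SE 0.24, adjusted p = 0.186). Leaving out either gomisin G library raised the calls over all genes, so the calls of those fits say nothing particular to this list.

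Gene length moved with the treatment over all genes, and the histone genes are short. Over 5 groups of equal size by length, the median log2 difference was 0.22 for the shortest genes (53 to 2165 bases) and -0.19 for the longest. The share of genes above 0 was 66.2% in the shortest group, 64.1% in the next (2165 to 3638 bases) and 30.4% in the longest. The tested histone genes had lengths of 381 to 5477 bases, with a median of 1668. With the length trend of each library removed, their median was 0.64 in place of 0.82, and 18 of 19 stayed above 0. By edgeR 0 of them were called, against 803 of all 15721 tested genes, and 10 had an unadjusted p below 0.05. Their lowest adjusted p was 0.0525.

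**Figure D5:**
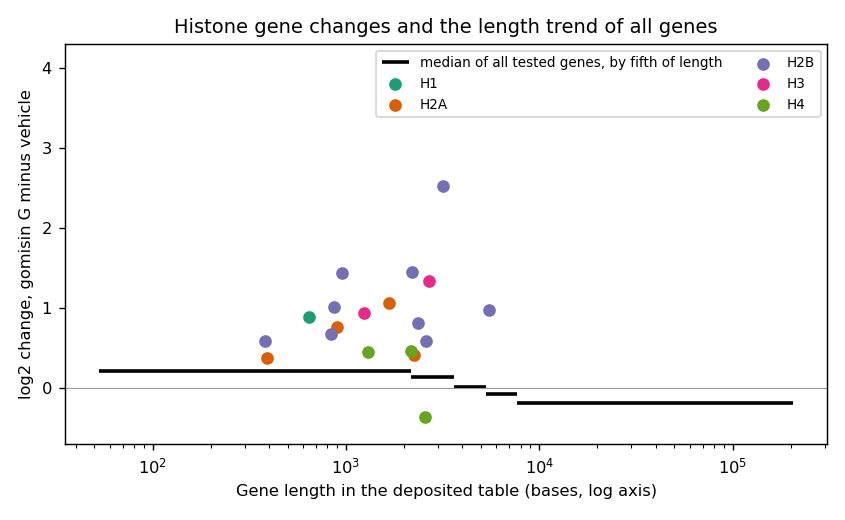
Fitted log2 difference, gomisin G minus vehicle, against gene length in bases (log axis) for the 19 tested histone genes, coloured by type, with the median of all tested genes in 5 groups of equal size by length as black lines. The lines fall from 0.22 to -0.19, and 18 histone genes lie above the line at their length.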

How the data were processed

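The authors deposited whole-number read counts for each gene, made with fastp, HISAT2 and featureCounts on hg38, per the submitters' processing notes. Versions, strand setting and the treatment of reads matching several places are not given in the sources used here. All 58735 gene identifiers and coordinates were the same as in GENCODE 29. From the deposited counts, differences were fitted in edgeR 4.0.16 (R 4.3.3): default filter by group, TMM, robust quasi-likelihood F test, treatment as the sole term, and Benjamini-Hochberg adjustment over 15721 genes, called below 0.05. Tested on simulated counts for these 15721 genes, this called 52% of genes changed 2-fold and 86% of those changed 4-fold. The changed genes were drawn from all of these genes, and both groups were given the same dispersion. These shares therefore do not say how many changed histone genes would be called. CPM values use the TMM factors; sums by type carry no test. Alternatives were RLE size factors, DESeq2 1.42.0, limma 3.58.1 voom, other filters, a loess length correction (span 0.3), each library left out, a replicate block, and sums without overlapping genes or the top gene. The members and lists were chosen with earlier results of these data known. Genes named are all tested histone genes, the 5 most counted untested ones, SLBP, NPAT, and up to 3 called genes of each other list (with no call, the gene of lowest p). Stem-loops were read from GENCODE 29 transcripts and promoters from RefSeq (GRCh38.p14).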

Additional observations from a re-analysis of the deposited data

How the results depend on the processing

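Over all genes, higher and lower calls (145 and 142) became 451 and 432 with DESeq2 and 387 and 416 with the length trend removed. Leaving out 1 library gave 74 to 3003 and 67 to 3322, fewest without Vehicle replicate 2 and most without Gomisin G replicate 2. Histone calls (0) became 3 higher with DESeq2 and 0 to 11 higher and 0 to 1 lower with 1 library left out. Calls for histone mRNA genes (0) became 3 with DESeq2, 3 with the length trend removed and 0 to 13 with 1 library left out. For chaperones (1) they became 0 with RLE, voom or no filter, 2 with DESeq2, 3 with the length trend removed and 0 to 15 with 1 library left out. For S phase genes (6) they became 10 with DESeq2, 12 with the length trend removed and 0 to 17 with 1 library left out, and for replication-independent histone genes (0) 0 to 6. A fit with 1 library left out keeps 1 library in that group, so its spread comes from the other pair alone. Between the 2 libraries of a group, the mean chi-square of counts per gene was 6.98 for vehicle and 37.2 for gomisin G. Counting error alone would put this value near 1. The cause of these shifts was not tested.

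The median histone log2 difference was 0.66 to 1.05 with 1 library left out and 0.67 without the filter (53 genes). Without its most counted gene the sum was -1.16 for H1, 1.08 for H2B and 0.75 for H3 on the log2 scale. With 1 library left out the H4 sum was 0.071 to 0.74. The sign turned with 1 library left out for 5 tested genes: HIST1H4I (-0.043 to 0.84), HIST1H2AG (-0.039 to 1.08), HIST4H4 (-1.48 to 0.23, with 0.019 without Vehicle replicate 1), HIST1H4H (-0.020 to 0.81) and HIST2H2AC (-0.24 to 1.5, with -0.0010 without Gomisin G replicate 1).

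The shared replicate numbers do not pair the samples by any label, and with 2 numbers per group the correlation of deviations (0.215) is the same for both by construction. With the replicate block the calls were 1408 higher and 1478 lower over all genes, 9 higher among histone genes, 7 among histone mRNA genes, 6 among chaperones, 15 among S phase genes and 1 among replication-independent histone genes. Depth limits many histone genes, since 33 of them had 1 to 20 counts in all.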

Other observations

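A further 19 rows with histone names have other biotypes, all of them kinds of pseudogene, and are outside the comparisons above. HIST2H2BC, a transcribed pseudogene of the H2B family, had 98 and 88 counts in vehicle and 105 and 156 with gomisin G (log2 0.43, edgeR adjusted p = 0.355), more than most of the protein-coding histone genes. HIST2H2BD, another transcribed pseudogene, had 16 and 26 counts against 14 and 34 (log2 0.14, edgeR adjusted p = 0.900), with overlapping groups.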
